A study of Saccharomyces cerevisiae with 7 samples.

Results

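The promoter hotspot of GAT1 was analysed at nucleotide resolution, within a window of chromosome VI from position 93500 to 99000 that holds the gene, the intergenic region (IGR) upstream of it and parts of its neighbours. The window was set by position and covers 5501 of the 11156993 nucleotides that were analysed outside chromosome III. Within it, 2 of the 2682 Spo11 hotspots called in the genome were found, and 1 of them spans the promoter of GAT1. The data were CC-seq maps, which record the 5′ DNA end to which a protein is covalently linked (a hit) on the Watson or the Crick strand. All cells were Saccharomyces cerevisiae of the SK1 background with SAE2 deleted (sae2∆), collected at 6 h in meiosis. They carried either wild-type SPO11 (SPO11+, 5 biological replicates, the fifth sequenced as 2 technical replicates) or spo11-Y135F, whose product lacks the catalytic tyrosine (1 library). The labels of both technical replicates of replicate 5 give sae2 as the genotype while their deposited maps are named WT. Both were counted here as sae2∆ and added up, and values without replicate 5 are given where a result turned on it.

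Spo11 is a topoisomerase-like protein that starts meiotic recombination by cutting both strands of the DNA helix, and it stays attached to the 5′ end it makes through its tyrosine. Without Sae2 the nuclease that frees Spo11 is not activated, so the linked ends accumulate where they were made. In budding yeast these breaks gather in the nucleosome-depleted promoters of certain genes, and GAT1 is one of the long-studied examples. Its product is a GATA-family zinc finger activator of genes for the use of poor nitrogen sources. GAT1 is read on the Watson strand and FRS2, which encodes the alpha subunit of cytoplasmic phenylalanyl-tRNA synthetase, leads away from it on the Crick strand, so that their shared IGR is divergent. On the other side GAT1 converges with PAU5, a member of the seripauperin family.

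The SPO11+ replicates held 3177210, 8564017, 4502308, 3559541 and 3569290 hits, and the spo11-Y135F library held 2326054. The window took 12200, 34931, 16867, 13326 and 15336 of the SPO11+ hits and 1032 of the control hits. No position of the window was masked, since the longest run without a hit in any library was 14 bp. Values are given in HpM, the hits per 1000000 hits of the same library. Copies made by PCR could not be told from separate molecules, so intervals on single libraries cover counting error only, and the SD over replicates measures the spread between biological replicates as the labels name them.

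In SPO11+ cells the GAT1 promoter was among the most broken places in the genome. The hotspot spanned positions 95136 to 96485 of chromosome VI (build Cer3H4L2), a width of 1350 bp, from 830 bp before the GAT1 start codon to 519 bp inside the open reading frame (ORF). It held 3655, 3893, 3555, 3518 and 4124 HpM in replicates 1 to 5, a mean of 3749 ± 256 HpM (SD, n = 5). The spo11-Y135F library held 101.5 HpM over the same nucleotides (236 hits; exact 95% Poisson interval 88.9 to 115 HpM), so that every SPO11+ replicate lay far above it and the mean ratio was 37.0. Of all SPO11+ hits in the window, 95.1% ± 0.743 (SD, n = 5) fell in the hotspot, against 22.9% of the hits of spo11-Y135F.

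**Figure D1:**
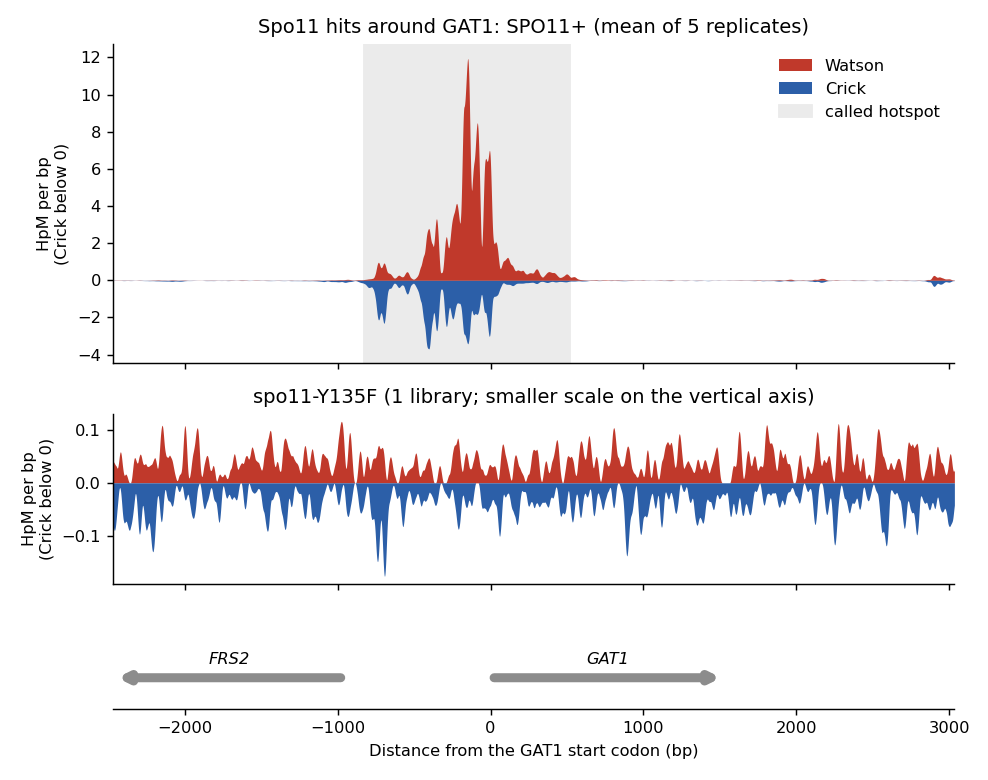
Hits around GAT1, smoothed with a 25 bp window, against the distance from the GAT1 start codon in bp. Watson hits are drawn above 0 and Crick hits below, in HpM per bp, as the mean of 5 SPO11+ replicates (top) and in the single spo11-Y135F library (middle, smaller scale). Grey shading marks the called hotspot of 1350 bp and arrows mark the direction of FRS2 and GAT1. The SPO11+ signal is confined almost wholly to the shaded stretch (95.1% of hits in the window), which holds 22.9% of the control hits. The highest 100 bp bin of the control (32 hits) starts 800 bp upstream, inside that stretch.

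By summed HpM the hotspot ranked 10 of 2682 in the genome and 1 of 76 on chromosome VI. Called on their own maps, replicates 1 to 5 gave it rank 8, 10, 10, 13 and 10. It held 32.7 times the HpM of the median hotspot (114 HpM) and 17.8% of the hits of all hotspots on chromosome VI. All hotspots together gave it 0.556% of their hits, on 0.0121% of the analysed length. The next strongest hotspot of the chromosome lay in the IGR of LSB3 and HIS2 with 1205 ± 216 HpM (SD, n = 5), so that GAT1 exceeded it 3.11 times. Among the 1144 hotspots that peaked in divergent IGRs, GAT1 ranked 7. The CV of its HpM over replicates was 6.82%, against a median of 12.4% over the 1460 hotspots of at least 100 HpM. Most of these hold fewer hits, so that counting error adds more to their CV. Hotspots of like strength, at ranks 8, 9, 11 and 12, had CVs of 13.3, 9.13, 6.55 and 9.15%.

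The call ranked 8 in width, a measure that also grows with strength at a fixed threshold, its highest point, 10.1 HpM per bp, ranked 23 and its mean density of 2.78 HpM per bp ranked 47. The hotspot was 38.9 times above the calling threshold at that point. On their own maps the replicates gave widths of 1368, 1376, 1279, 1341 and 1345 bp. The shortest stretch that held 90% of the hits measured 806, 799, 763, 773 and 772 bp, and on the mean map its 781 bp ranked 21, against a median of 121 bp over all hotspots. By contrast, the shortest stretch with 50% of the hits was only 200 to 222 bp, and the width at the height of 50% was 256 bp, which ranked 137. The hotspot thus consisted of a concentrated core with long shoulders.

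Of the 4 hotspots closest to GAT1 in rank, 3 were narrower than it in all 5 replicates. At rank 9 was the IGR of PEX25 and CAR1, which encodes arginase, with 3806 ± 347 HpM (SD, n = 5), and at rank 11 the IGR of LEU4 and MET4, which encode an alpha-isopropylmalate synthase and an activator of sulfur metabolism, with 3589 ± 235 HpM. In the same 5 libraries GAT1 was above the CAR1 hotspot in 2 and above the LEU4 and MET4 hotspot in 4 (exact two-sided sign-flip permutation p = 0.4375 and 0.375). Their order thus changed between replicates. All 4 hotspots were chosen for their closeness to GAT1 in mean HpM over these replicates. The p-values for HpM therefore cannot decide whether they differ from GAT1. The hotspot inside AXL1, at rank 12, had 3437 ± 314 HpM and lay below GAT1 in 4 of 5 (exact permutation p = 0.1875). The hotspot of SRB2 and NCP1, at rank 8, had 4263 ± 569 HpM and was above GAT1 in 5 of 5, with the smallest p that 5 pairs can give (exact permutation p = 0.0625, 0.0789 after Benjamini-Hochberg adjustment over 24 comparisons). In width, 90% of hits lay within 783 ± 18.7 bp at GAT1, 222 ± 2.61 bp at CAR1, 478 ± 17.3 bp at LEU4 and MET4, and 323 ± 10.9 bp at AXL1, with GAT1 wider in every replicate (exact permutation p = 0.0625, adjusted 0.0789, for each). The SRB2 and NCP1 hotspot, at 816 ± 65.1 bp, differed from GAT1 by less than its spread. Of the other long-studied hotspots, that of CYS3 held 692 ± 74.5 HpM (rank 209) and that of ARG4 and DED81 held 893 ± 126 HpM (rank 134), and 90% of their hits lay within 137 ± 3.29 and 133 ± 6.36 bp.

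**Figure D2:**
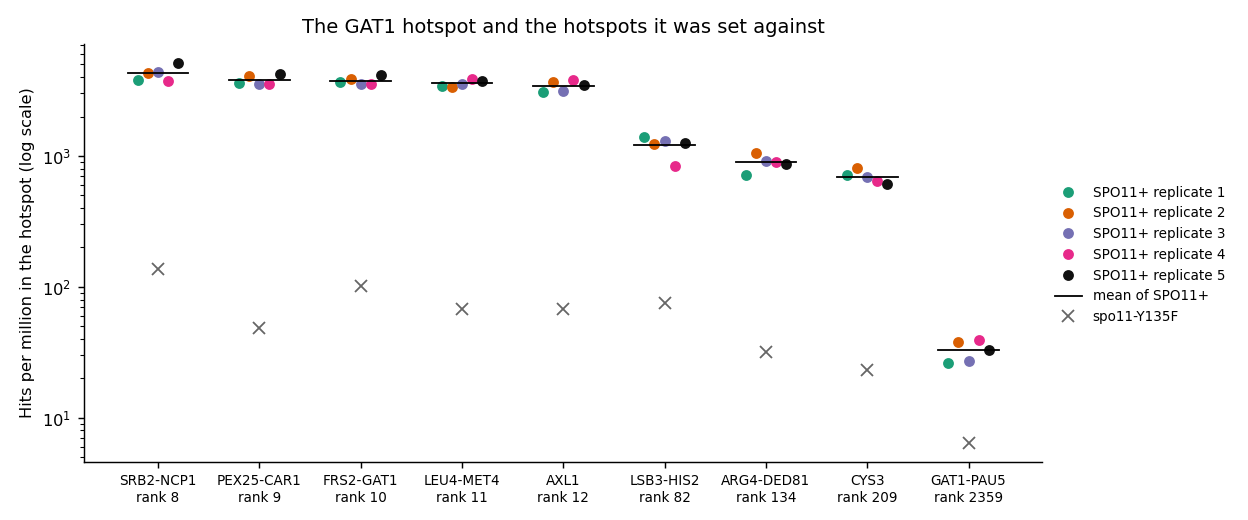
HpM of each hotspot on a log axis. Coloured points are the 5 SPO11+ replicates, black bars their mean and crosses the single spo11-Y135F library. The points of GAT1 (3518 to 4124 HpM) overlap those of the PEX25 and CAR1, LEU4 and MET4, and AXL1 hotspots and lie above all points of the hotspots at rank 82 and below.

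Most breaks were made between the genes, and a smaller part lay inside GAT1. The FRS2 and GAT1 IGR of 955 bp held 3141, 3337, 3147, 3119 and 3653 HpM, or 83.2% ± 1.41 (SD, n = 5) of the window. The control held 72.2 HpM there (168 hits), and no replicate came near that level. The GAT1 ORF held 518 ± 66.1 HpM, 13.1% ± 1.47 of the window. Of this, 484 ± 68.3 HpM lay in the first 520 bp, inside the hotspot, and only 34.2 ± 4.41 HpM in the remaining 1013 bp. Per length, that remainder had 0.0337 HpM per bp against 0.0828 in spo11-Y135F, and the FRS2 ORF had 0.0329 against 0.0831. Both stretches were thus lower in SPO11+ than in the control on the HpM scale, on which each library's hits sum to the same total.

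Over all 11312 ORFs and IGRs the contrast of SPO11+ with spo11-Y135F was tested with edgeR's quasi-likelihood test, in which the lone control was assumed to vary as the SPO11+ replicates do. The IGR upstream of GAT1 was higher in SPO11+ by 5.50 ± 0.24 (SE) on the log2 scale (edgeR adjusted p = 4.75e-08), the 16th largest difference of all regions and the 10th of 1478 divergent IGRs. Of all regions 20% were called higher and 66.8% lower, and of divergent IGRs 65.2% were higher, so that being called was common for an IGR of this kind while the size was not. The GAT1 ORF was higher by 2.08 ± 0.24 (edgeR adjusted p = 1.94e-05), where only 3.77% of ORFs were called higher. The FRS2 ORF was lower, with a log2 difference of -1.33 ± 0.25 (edgeR adjusted p = 0.000283), as were 90.8% of ORFs. The IGR between GAT1 and PAU5 had -0.49 ± 0.24 (edgeR adjusted p = 0.072), where 93.2% of convergent IGRs were called lower and 1.24% higher. This scaling set the median of all regions to -1.77. With TMM factors the median was -0.20 and the split of calls moved from 2261 higher and 7558 lower to 3998 and 3266. The direction at FRS2 and at the convergent IGR then turned to 0.25 and 1.10, so that neither direction holds apart from the scale, whereas the IGR upstream of GAT1 (7.09) and the GAT1 ORF (3.68) stayed higher.

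The 5′ ends were not spread evenly along the promoter. The smoothed map peaked at position 95823, 143 bp upstream of the start codon, and the peaks of single replicates lay between 148 and 139 bp upstream. In bins of 100 bp counted from the start codon, the bin that starts 200 bp upstream held 939, 991, 966, 884 and 1206 HpM, a mean of 997 ± 123 (SD, n = 5). The bin next to the start codon held 786 ± 38.3 HpM, so that these 200 bp were the core of the hotspot. Upstream of them the level stepped down to 505 ± 46.4, 324 ± 43.1 and 306 ± 23.1 HpM per bin and then to 64.7 ± 4.63 HpM in the bin that starts 600 bp upstream. Beyond this low stretch it was higher again, at 110 ± 12.8 and 166 ± 10.3 HpM, in a second group of breaks near FRS2. Within the next 100 bp the signal dropped to 14.2 ± 3.42 HpM. In the control, single bins held 9 to 32 hits (3.87 to 13.8 HpM), and its highest bin was the one starting 800 bp upstream (32 hits, exact 95% Poisson interval 21.9 to 45.2), where SPO11+ had its second group of breaks.

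Inside the ORF the signal declined from each 100 bp bin to the next. The first 100 bp of coding sequence held 237 ± 29.7 HpM and the following bins 98.5 ± 13.8, 58.9 ± 11.5, 47.3 ± 11.7, 33.6 ± 4.76 and 21.6 ± 3.52 HpM (SD, n = 5 in each). The lowest replicate of each of these bins, 203, 86.0, 45.1, 34.0, 26.4 and 15.8 HpM, was above the control, whose bins held 6.02 to 8.598 HpM. With a narrow smoothing window of 25 bp, 11 summits were resolved in the hotspot. The highest stood 149 bp upstream of the start codon at 15.4 ± 1.38 HpM per bp, followed by those 87 bp (10.3 ± 0.443) and 7 bp upstream (10.0 ± 0.493). Each of these 3 summits kept its place to within 3 bp between replicates, closer than their distance from each other. A further summit of the mean map lay inside the ORF, 112 bp past the start codon, at 1.45 ± 0.326 HpM per bp. Its place was not shared by the replicates, whose highest points ran from position 96053 to 96103, over the whole stretch searched.

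**Figure D3:**
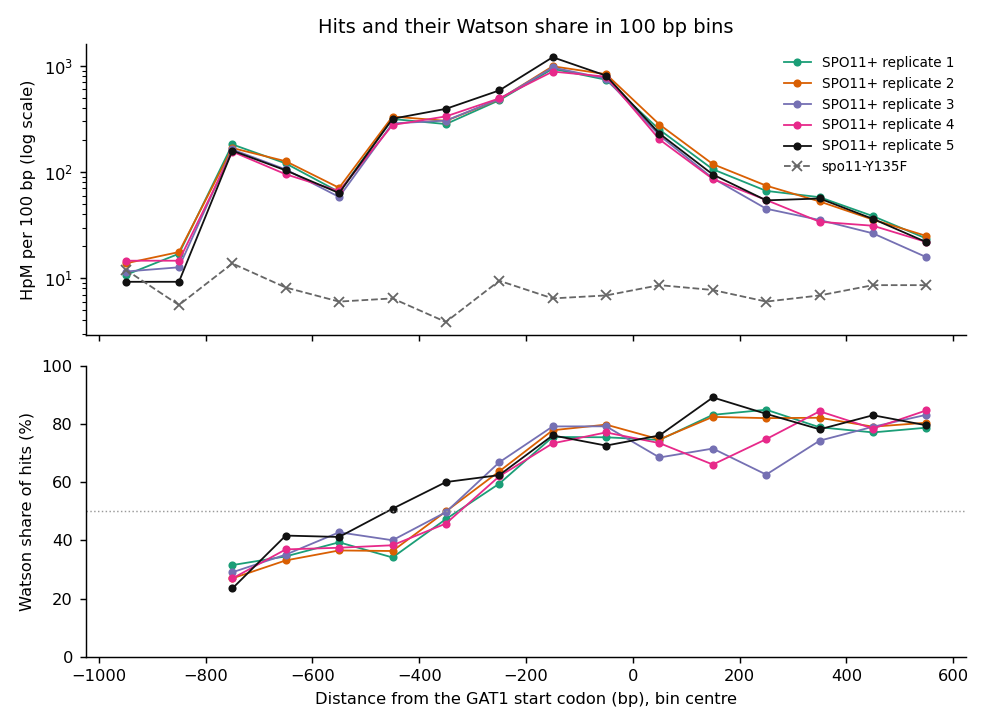
HpM on a log axis (top) and Watson share of hits in percent (bottom) in bins of 100 bp, placed by the distance of the bin centre from the GAT1 start codon. Lines join the values of 1 library, and the dashed line is spo11-Y135F. Hits peak at 997 HpM on average in the bin that starts 200 bp upstream, and the mean Watson share goes from 27.6% at the FRS2 end to 76.3% in that bin, with all 5 replicates higher in the latter. Shares left of the hotspot are not drawn.

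The mapped ends were divided unequally between the strands. Watson ends made up 63.7, 66.3, 66.4, 63.4 and 67.0% of the hits in the hotspot in replicates 1 to 5, a mean of 65.3% ± 1.68 (SD, n = 5), while the whole libraries were balanced at 50.3 to 50.5%. In spo11-Y135F the share over the same nucleotides was 44.9% (106 of 236 hits, 95% Wilson interval 38.7 to 51.3%). Of the 50 strongest hotspots, whose shares ran from 39.0 to 65.4% with a median of 50.7%, GAT1 had the highest, and of the 1460 hotspots of at least 100 HpM it ranked 126. The CAR1 hotspot had a similar share of 64.0% ± 3.83, with GAT1 higher in 3 of 5 replicates (exact sign-flip permutation p = 0.5). At CYS3 the share was 71.8% ± 1.30, above GAT1 in every replicate. The hotspots of SRB2 and NCP1, LEU4 and MET4, AXL1, and ARG4 and DED81 were below GAT1 in 5 of 5.

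The excess of Watson ends was not uniform but grew from left to right. In the bin starting 800 bp upstream of the start codon the Watson share was 27.6% ± 2.97 (SD, n = 5), so that Crick ends prevailed there. It was 36.2% ± 3.31, 39.4% ± 2.57 and 39.9% ± 6.49 in the next 3 bins, 50.5% ± 5.57 in the bin starting 400 bp upstream, then 62.9% ± 2.68 and 76.3% ± 2.23. From there it stayed between 73.4% and 81.2% on average up to 599 bp inside the ORF. Replicate 5 stood apart in the bins starting 500 and 400 bp upstream, with 50.8 and 60.0% against 34.1 to 40.02% and 45.8 to 49.9% in the others.

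Divided at the midpoint of its hits, 156 bp upstream of the start codon, the hotspot had a Watson share of 51.3, 52.3, 55.7, 51.5 and 59.2% on the left and 76.0, 79.0, 77.3, 75.3 and 75.3% on the right. The sides did not overlap in any pair of replicates. The difference was 24.8, 26.7, 21.6, 23.8 and 16.1 points, a mean of 22.6 ± 4.06 (SD, n = 5), higher on the right in 5 of 5 (exact two-sided sign-flip permutation p = 0.0625, the smallest that 5 replicates can give). Without replicate 5 it was 24.2 points. In spo11-Y135F the difference was 4.75 points (42.6% on the left and 47.4% on the right). It rests on only 236 hits in all, and no interval was computed for it. Among the 1460 hotspots the difference at GAT1 ranked 23, against a median of 1.39 points and quartiles of -4.98 and 6.73, and a right side richer in Watson ends was found in 56.5% of them. The 50 strongest ranged from -16.4 to 42.0 points with a median of 6.60, and GAT1 ranked 4. Against its neighbours in rank, the difference at GAT1 was larger in all 5 replicates than at SRB2 and NCP1 (9.69 ± 1.75 points), LEU4 and MET4 (14.8 ± 4.53) and AXL1 (7.57 ± 3.76), and at CAR1 it ran the other way (-16.8 ± 7.75; exact permutation p = 0.0625, adjusted 0.0789, for each). On average the Watson ends lay 144 bp and the Crick ends 288 bp upstream of the start codon, so that their centres were 144 ± 18.6 bp apart.

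Individual cuts were resolved as pairs of a Watson end and a Crick end offset by 1 bp. Over the hotspot the correlation of Watson with Crick hits at this offset was 0.682, 0.681, 0.681, 0.702 and 0.786 (Pearson r over 407 to 679 sites per replicate, which share library and depth), and in 5 of 5 replicates no other offset from -100 to 100 bp came higher. The mean was 0.706 ± 0.0453 (SD, n = 5), compared with 0.11 at 0 bp, 0.0731 at 2 bp and 0.0223 over all other offsets. Replicate 5 was the highest, and both of its technical replicates (0.769 and 0.756) were above the other 4 replicates. Pairs with at least 1 hit on each strand took 92.2% ± 2.02 of the hits, whatever the balance between their strands. In spo11-Y135F 11 such pairs took 9.75% of its hits. This share rises with depth, and the control had 236 hits in the hotspot against 11612 to 33339 per SPO11+ replicate. The shares of the genotypes can therefore not be compared, and the share at other offsets was not tested. The correlation at GAT1 was nonetheless low for a strong hotspot. Of the 50 strongest it ranked 49 (range 0.652 to 0.977, median 0.864). Over the genome the replicates gave 0.809 ± 0.0203, with 0.0223 in spo11-Y135F. The genome values of the replicates span 169770 to 356899 sites of hot and cold regions, so they are not a like measure to r inside a single hotspot. The share of hits at pairs at GAT1, which also rises with depth, ranked 38 of 50 (median 94.1%).

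**Figure D4:**
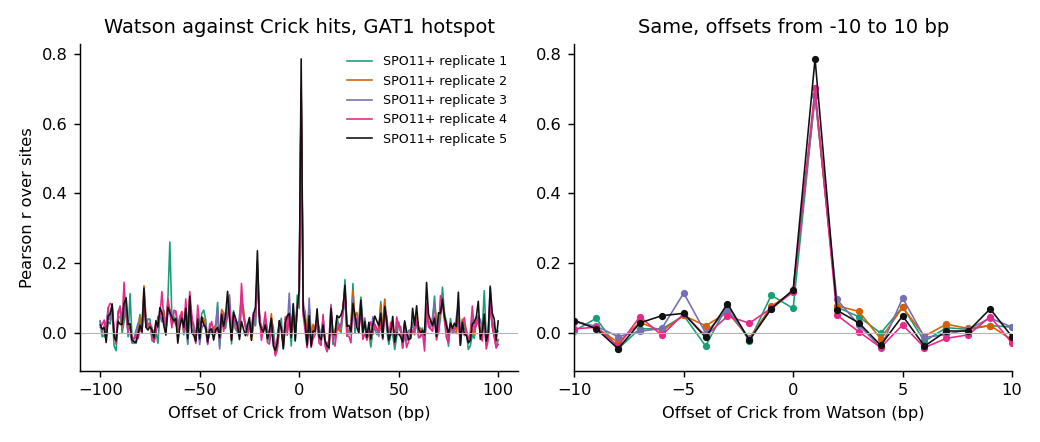
Pearson r between Watson and Crick hits over sites of the GAT1 hotspot with hits on both, against the offset of the Crick strand in bp, with 1 line per SPO11+ replicate. The right panel enlarges the offsets from -10 to 10 bp. All 5 lines have a single high point at 1 bp, at 0.681 to 0.786.

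The strands of each pair were compared with edgeR's quasi-likelihood test, with replicate as a covariate, over all 78044 pairs of the genome with at least 40 hits. Of 294 such pairs in the hotspot, 173 had more Watson and 48 more Crick hits and 73 were not called, where 24% of all pairs were called for Watson and 22.2% for Crick. Left of the midpoint 41 of 148 pairs were called for Watson and 44 for Crick, with a median log2 ratio of -0.09. These calls were not mixed evenly along the left side. From position 95146 to 95518 every called pair had more Crick hits, and from 95707 to 95808 nearly all had more Watson hits. On the right 132 of 146 pairs were called for Watson and 4 for Crick, with a median of 1.96. Without replicate 2, the deepest library, 104 pairs on the right were called for Watson.

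The 10 strongest pairs held 25.3% ± 1.06 (SD, n = 5) of the hits in the hotspot. First among them was the pair at positions 95819 (Watson) and 95820 (Crick), 147 bp upstream of the start codon, which alone took 5.65% ± 0.397 and ranked 35 among all pairs of the genome. Its Watson end had 474, 1576, 863, 554 and 654 hits and its Crick end 144, 345, 144, 124 and 147, so that Watson prevailed in every replicate (log2 ratio 2.16 ± 0.14, SE, edgeR adjusted p = 5.06e-22). At the second pair, Watson position 95956 and 10 bp upstream, the ratio was 1.04 ± 0.14 (edgeR adjusted p = 2.6e-09). By contrast, the pair with its Watson end at 95615, 351 bp upstream, had 166, 551, 319, 256 and 344 Watson hits and 168, 426, 249, 237 and 246 Crick hits, and its log2 ratio of 0.27 ± 0.14 did not pass the test (edgeR adjusted p = 0.101). Its Crick end was the most hit Crick position of the hotspot in 4 of 5 replicates. The remaining strong pairs followed their place along the promoter. Those at 95797, 95861, 95789 and 95885, 177 to 81 bp upstream, had ratios from 1.33 to 2.63 (edgeR adjusted p at most 5.91e-12), the pair at 95678, 288 bp upstream, had 0.23 and was not called, and the pair at 95536, 430 bp upstream, had more Crick hits (-1.05 ± 0.16, edgeR adjusted p = 1.41e-07). At 95930, 36 bp upstream, Watson hits were 234, 689, 302, 226 and 119 and Crick hits 16, 62, 20, 13 and 42. Its log2 ratio of 3.30 ± 0.21 (edgeR adjusted p = 6.38e-23) was shared by replicates 1 to 4 (3.46 to 4.07) and was smaller in replicate 5 (1.49).

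**Figure D5:**
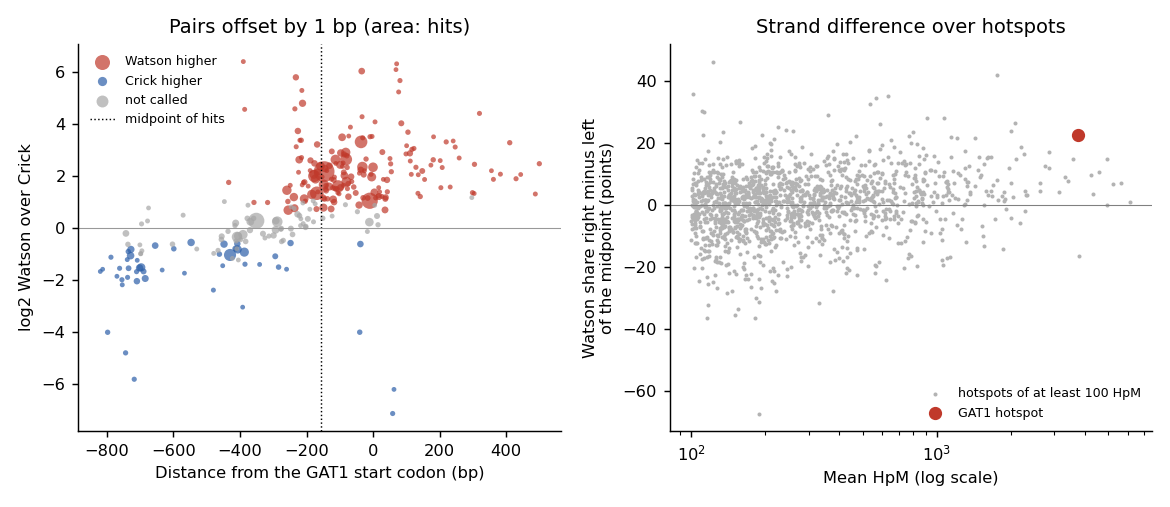
Left, log2 ratio of Watson to Crick hits at 294 pairs of the GAT1 hotspot against the distance from the GAT1 start codon in bp, with the area of a point growing with its hits and colour for the edgeR call (red, 173 Watson higher; blue, 48 Crick higher; grey, 73 not called). Right, Watson share right minus left of the midpoint, in points, against mean HpM on a log axis for 1460 hotspots, with GAT1 (22.5 points on the mean map) in red. Pairs right of the dotted midpoint lie mostly above 0, and GAT1 lies near the upper edge of the cloud.

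Beyond the hotspot the locus was quiet. The nearest hotspot on the left, in the IGR of EPL1 and BUD27, began only after 4305 bp and held 47.0 ± 2.73 HpM (rank 2103). The other hotspot of the window, at positions 98848 to 98928 in the convergent IGR of GAT1 and PAU5, lay 2362 bp to the right and held 26.4, 38.2, 27.3, 39.3 and 33.1 HpM (32.9 ± 5.96, rank 2359). The control had 6.45 HpM there, below every replicate. Hotspots in convergent IGRs were rare, at 31 of 2682, and this one ranked 24 among them.

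Replicates placed their hits alike down to single nucleotides. Across the nucleotides and strands of the hotspot, the Pearson r of hits between replicates was 0.969 ± 0.014 over 10 pairs of replicates, as a description. It was 0.963 to 0.989 between replicates 1 to 4, 0.946 to 0.965 between these and replicate 5, and 0.962 between the technical replicates of replicate 5.

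GAT1 belongs to a set of 27 genes of nitrogen use, whose upstream IGRs were compared on the same scale. These comprise GATA factors and regulators, ammonium and amino acid permeases, catabolic enzymes and enzymes of ammonium assimilation, and they share 26 IGRs. Of these, 13 were called higher in SPO11+, 6 lower and 7 not called, near the 48.5% called higher and 25.1% called lower among all 4185 IGRs upstream of a gene, and the median log2 difference was 0.75 against 0.60 over all. With TMM factors, 23 were called higher and 0 lower, where 78.1% and 2.6% of all upstream IGRs were, and DESeq2 gave the same counts beside 80% and 0.693%. GAT1 led the set with 3.43 HpM per bp, the 19th highest of all upstream IGRs per bp and the 10th by HpM. It was followed by CAR1 with 2.89 HpM per bp (3829 ± 346 HpM, SD, n = 5), and by MEP1, which encodes an ammonium permease, with 1.97 HpM per bp (954 ± 193 HpM). The lowest was GDH1, encoding a glutamate dehydrogenase of ammonium assimilation, with 0.026 HpM per bp and a log2 difference of -1.86 ± 0.52 (edgeR adjusted p = 0.00502). Its IGR, which ends at YOR376W in the gene table, measured only 148 bp and held 3.85 ± 1.80 HpM, against 955 bp at GAT1. Sequence from that ORF onward was not counted for GDH1.

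Each role holds few genes, and its counts are read beside the same 48.5% called higher and 25.1% called lower over all upstream IGRs. Of GATA factors and regulators, 3 of 5 were called higher. Chosen for naming after their values were seen, these were GAT1, the GATA activator GLN3 (log2 difference 3.87 ± 0.31) and the GATA repressor GZF3 (2.49 ± 0.33), whereas DAL80 (0.82 ± 0.44) and URE2 (0.34 ± 0.28), a further GATA repressor and the cytoplasmic regulator of Gln3, were not called (edgeR adjusted p = 0.0942 and 0.263). The IGR counted for DAL80, which ends at YKR032W in the gene table, measured only 66 bp and held 11.4 ± 1.85 HpM, so few hits were tested there. Of 10 permeases 5 were higher and 1 lower, of 9 catabolic enzymes 3 were higher and 4 lower, and of 3 assimilation enzymes 2 were higher and 1 lower.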

How the data were processed

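Spo11 CC-seq hits were analysed in 6 SPO11+ libraries (5 biological replicates) and 1 spo11-Y135F library. The authors aligned read pairs with Bowtie2 to Cer3H4L2, the Cer3 yeast build with loci added, computed the protein-linked end with terminalMapper and excluded repeats, telomeres and rDNA. Per the file headers, the deposited single maps give unscaled counts at each position of either strand. The deposited average map of SPO11+ holds RPM (here HpM) and served only as an alternative, after its Crick positions were moved up by 1 bp. No column was left unused (0). Chromosome III, which received the loci, was left out of regions and ranks.

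Counts were scaled to library totals. Replicate maps were averaged, smoothed with a Hann window reaching 100 bp to each side, and a hotspot was a run of 25 bp or more over 3 times the average level, with runs joined when less than 200 bp apart. Runs of more than 200 bp without hits were taken as masked. Gene names, ORFs and distances from start codons came from a gene table of R64 (6002 protein-coding genes with a strand), which was laid on the maps without a shift, so distances assume the same coordinates on chromosome VI. Regions and pairs were tested with edgeR 4.0.16 in R 4.3.3 (quasi-likelihood, Benjamini-Hochberg over all regions or pairs, level 0.05, minimum 10 hits per region and 40 per pair, library size as total hits for regions). Single values of paired replicates were compared by exact sign-flip permutation tests. Python 3.11.15, numpy 2.4.6, scipy 1.17.1, pandas 2.3.3 and matplotlib 3.10.9 were used. The caller and both models were tested on simulated data. Planted changes of 2-fold were recovered in 7% of regions and 9% of pairs, and changes of 4-fold in 87% and 78%. Among features left unchanged, 4 regions and 0 pairs were called. A region or pair that was not called may therefore still differ by about 2-fold, and in some cases by 4-fold. At most 100 features were changed at each size, far fewer than the regions called in the data, so the rate of false calls there may differ.

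Members and lists were chosen with earlier results of these data known. Named were GAT1, the genes beside it, the hotspots adjacent in rank (2 on each side), those of CYS3 and of ARG4 and DED81, other hotspots of the window, the strongest of chromosome VI, the 10 pairs with most hits, and the 3 highest and the lowest of the nitrogen set. LSB3 and HIS2, EPL1 and BUD27 were named beside this rule. Alternatives covered scale, threshold, window, merging, filters, limma 3.58.1, DESeq2 1.42.0 and each replicate left out. The division of the hotspot at its midpoint, and the alternatives to results that use it, were chosen after the data had been seen. Genome sequence and Spo11 oligonucleotide maps were not used here.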

Additional observations from a re-analysis of the deposited data

Results flagged for a closer look

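Among 63 measures compared between the 5 SPO11+ replicates, 6 had 1 replicate set apart from the other 4 by more than 0.71 of the whole range (Dixon's 95% value). Chance flags about 1 in 20, or 3.2 of 63 if the measures were unrelated, which they are not. Replicate 5 was the one set apart in 3 of the 6. Its correlation of Watson with Crick hits at 1 bp was 0.786 (others 0.681 to 0.702), its bin starting 300 bp upstream of the start codon held 587 HpM (474 to 494), and the log2 ratio of its pair at 95930 was 1.49 (3.46 to 4.07). Replicate 4 had 114 HpM after GAT1 (85.9 to 93.2) and a log2 ratio of 0.95 at the pair at 95797 (1.34 to 1.47). In replicate 3 the 10 strongest pairs held 27.1% of hits (24.6 to 25.3%). Replicate 5 is also the replicate whose map names and labels differ in genotype, and the part of this in its values was not tested.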

How the results depend on the processing

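Of 146 alternative values of 17 results, 122 were labelled as kept. For measures this meant a move no larger than the SD over replicates, and for tested differences the same direction and call. Counts of calls only had to stay within a set fold of the main count. Thus 171 called pairs without replicate 2 and 177 with DESeq2, in place of 221, were among the 122. The HpM of the hotspot was 5563 when scaled to hits in hotspots, whose unit differs by construction. Its rank was 47 by HpM per bp and 23 by height. The peak moved to 95811 and 95841 with windows reaching 50 and 200 bp and to 95819 without smoothing, and the width to 1411, 1207 and 1391 bp at 2 and 5 times the mean and with the wider window. The Watson share was 63.6% over the IGR alone. With TMM and with DESeq2, regions called higher went from 2261 to 3998 and 4166, the nitrogen set from 13 to 23 and 23 higher and from 6 to 0 and 0 lower, the FRS2 ORF turned to 0.25 and 0.39 (adjusted p 0.437 and 0.204 by edgeR and DESeq2) and the IGR between GAT1 and PAU5 to 1.10 and 1.24 (0.00309 and 0.000474). With at least 100 hits per pair, 155 pairs in place of 294 were tested, 119 were called in place of 221, and 66 in place of 132 were called for Watson right of the midpoint. Leaving out 1 replicate gave 3655 to 3807 HpM, rank 10 throughout, peak 95822 to 95824, width 1341 to 1360 bp, r 0.687 to 0.713, 91.4 to 92.6% of hits at pairs, Watson share 64.9 to 65.8%, right minus left 21.6 to 24.2 points, log2 5.46 to 5.52 upstream of GAT1, 2178 to 2373 regions higher, 13 to 14 higher and 5 to 7 lower in the nitrogen set, 171 to 226 called pairs and 104 to 140 for Watson on the right. Without replicate 2 or 4 the IGR between GAT1 and PAU5 was called lower (edgeR adjusted p = 0.0333 and 0.0401). Thinned to the lowest total, r was 0.698 and the share at pairs 90.6%. No paired analysis was possible because the genotypes share only replicate number 1 and the control is a single library, which also leaves every genotype contrast without a replicate check of the control.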

Other observations

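After 1 bp, the offset with the highest mean correlation between Watson and Crick hits in the hotspot was -21 bp (0.182 ± 0.0401, SD, n = 5), followed by 23 bp (0.127 ± 0.0205), each given as a description over sites that share their library. The most hit Crick position was 95616 in 4 SPO11+ replicates and 95537 in replicate 1, while the most hit Watson position was 95819 in all 5. SPO11+ hits fell on 1303 of the 1350 positions of the hotspot. The technical replicates of replicate 5 differed in the Watson share right minus left of the midpoint, with 19.6 and 13.7 points, both below the other replicates (21.6 to 26.7). Over the 1460 hotspots of at least 100 HpM this difference had a Spearman rho of 0.232 with width and 0.203 with HpM, across hotspots that share the same libraries.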
